A study of Mus musculus with 38 samples.

Results

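Endothelial cells line blood and lymph vessels, and 35 genes that mark them were followed across 4 experiments on 4T1 cells, a mammary tumour line of the mouse with which triple-negative breast cancer is modelled. The genes came from a list of names, not from a cut on measured values, but the list was chosen with earlier results of these data known. Counts of these genes are therefore not independent of the data. All 35 were found among the 57126 genes of the largest table. Of the 35 genes, 30 mark endothelial cells in general. Another 4, Cldn5, Mfsd2a, Slco1c1 and Abcb1a, belong to the blood-brain barrier, and 1, Lyve1, marks lymphatic vessels.

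The study sequenced 38 libraries to ask how exosomes, small vesicles shed by cells, from insulin resistant adipocytes act on this tumour and on its spread to the brain. In the brain clonogenic experiment, 5 libraries came from an insulin resistant (IR) group, 5 from an insulin sensitive (IS) group and 5 from an untreated control group. In a clonogenic assay, cells freed from an organ are cultured so that tumour cells in it can grow into colonies. The primary tumour experiment held 5 IR and 4 untreated control libraries. In the exosome culture experiment, 4T1 cells were grown for 72 h with exosomes of IR adipocytes, with exosomes of IS adipocytes or with no treatment, with 3 libraries each, and the adipocytes were 3T3-L1, a mouse line that can be turned into fat cells. In the small RNA experiment, 3 libraries were titled as 4T1 cells given miR-145a-3p and 2 as cells given a scrambled miRNA, but the library names in the labels run the other way, so directions in that experiment rest on the titles. All 38 libraries, control groups included, are labelled as 4T1 mammary adenocarcinoma cells. The titles call the libraries of a group biological replicates. The strain, age and housing of the animals, and whether these replicates came from separate animals or cultures, are not stated. A p value therefore covers no more than the scatter among these libraries, which may in part be technical.

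Endothelial cells hold together through VE-cadherin and other junction proteins, and their identity is set by ETS and SOX transcription factors. In brain vessels, tight junctions and transporters form a barrier, while leakier vessels carry diaphragm-covered openings built from Plvap. Sprouting vessels are led by tip cells, which make apelin and endocan.

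Library totals were 8790616 to 13272583 counts in brain, 17392887 to 21909370 counts in tumours, 8455412 to 12785398 counts in exosome culture and 24972592 to 32637552 counts in the small RNA experiment. Levels are in CPM, a gene's counts relative to the library total after scaling between the libraries of an experiment. Epcam, an epithelial marker carried by 4T1 cells, was at 0.507 to 1.70 CPM in IR, 0.279 to 2.64 CPM in IS and 0.616 to 2.91 CPM in control brain libraries, against 170.1 to 193 CPM in untreated 4T1 cultures, 383 to 741 CPM in IR tumours and 311 to 513 CPM in control tumours. The brain libraries therefore carried the marker of the labelled cell type at a low level. IS 2, IR 3 and IR 4 among the brain libraries had a root mean square deviation from their group of 0.317, 0.307 and 0.250 on the log2 scale, and the other brain libraries ranged from 0.177 to 0.299. Results in brain are given with and without these 3 libraries where that changes a count.

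Most of the endothelial genes could be tested in brain and in tumours and few in cultured 4T1 cells, where Apln, Eng and Mfsd2a were among those that could. A gene was tested where it reached 3 CPM in at least 3 libraries of an experiment. In brain 32 of the 35 genes passed, all but Aplnr, Lyve1 and Slco1c1, and in tumours 32 passed, all but Mfsd2a, Slco1c1 and Tal1. In exosome culture 5 passed (Adgrf5, Apln, Egfl7, Eng and Mfsd2a), and in the small RNA experiment 4 passed (Apln, Egfl7, Eng and Mfsd2a). In all 9 exosome culture libraries 27 of the 35 genes stayed below 1 CPM, and 11 had no count at all, among them Cldn5, Clec14a, Ptprb and Adgrl4. A limit of 3 counts stands for a gene with none. Pecam1, the adhesion molecule of endothelial junctions, had 1, 0 and 2 counts with IR exosomes, 3, 1 and 4 counts with IS exosomes and 0, 1 and 3 counts without treatment.

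Summed over the 35 genes, brain libraries held 1481 to 3040 CPM in the IR group, 647 to 2365 CPM in the IS group and 476 to 687 CPM in the control group. The IR and control groups did not overlap, while the IS group reached from within the control range into the IR range. Tumours held 825 to 1412 CPM in the IR group and 784 to 1262 CPM in the control group, so these groups overlapped widely. The sum was 218 to 229 CPM with IR exosomes, 229 to 236 CPM with IS exosomes and 219 to 236 CPM without treatment in culture, most of it from Eng and Apln. In bulk samples, fewer cells of a type and less RNA per cell cannot be told apart.

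**Figure D1:**
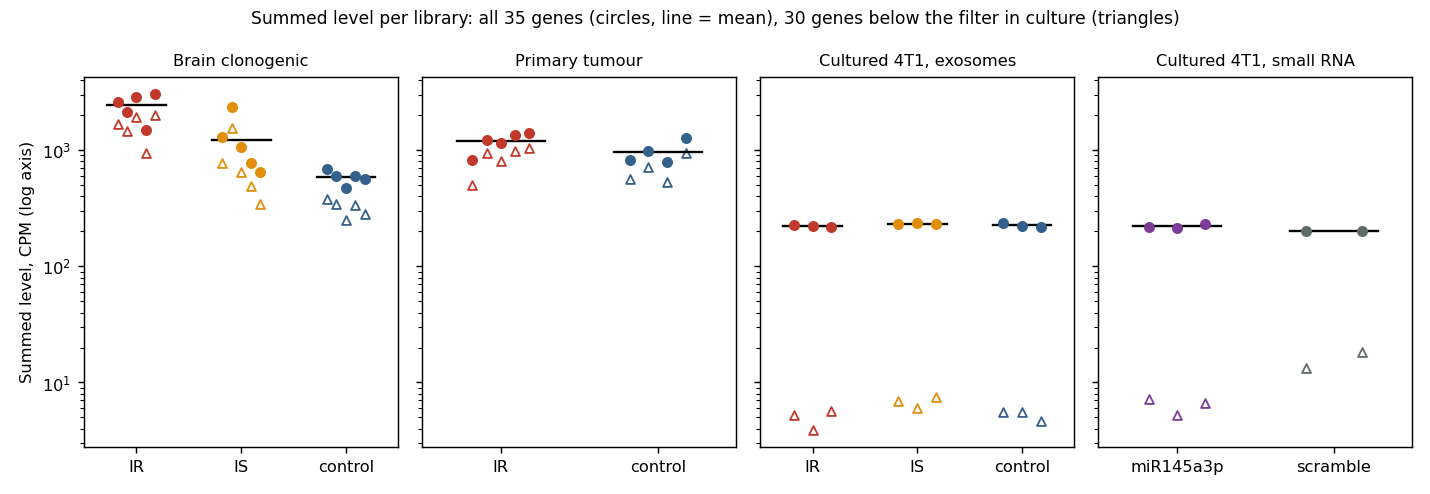
Summed level in CPM on a log axis for each library in the 4 experiments, for all 35 endothelial genes (filled circles, with the group mean as a line) and for the 30 genes that did not pass the filter in exosome culture (open triangles). The brain IR libraries sit between 1481 and 3040 CPM, above all 5 control libraries, and the triangles of both culture experiments lie far below those of brain and tumour.

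Promoters of 4 genes, picked with their values known, are shown, and all 4 were higher in the IR than in the control brain libraries described below. The RefSeq table used holds, for build GRCm38.p6, 300 bases around a transcription start, and 18 of the 35 genes matched it by symbol. The letters AGGAAG, which contain the core bound by ETS factors such as Erg, were searched on both strands (CTTCCT on the other), as were AACAAT, a motif of SOX factors, and ATTGTT on the other strand, and matches of the ETS and SOX letters cannot overlap each other. Capitals mark AGGAAG or CTTCCT. Adgrl4, Robo4 and Apln were taken only from genes with a single window that held the ETS letters, so their matches were fixed by the choice. Cldn5 was added by name.
Adgrl4, chr3:151437632-151437931, plus strand: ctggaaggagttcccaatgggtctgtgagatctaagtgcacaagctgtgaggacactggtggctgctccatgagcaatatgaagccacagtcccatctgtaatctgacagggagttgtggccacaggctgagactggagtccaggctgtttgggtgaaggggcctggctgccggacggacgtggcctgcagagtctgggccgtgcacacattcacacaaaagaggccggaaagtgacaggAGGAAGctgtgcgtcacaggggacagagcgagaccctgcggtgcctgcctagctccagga
Robo4, chr9:37401722-37402021, plus strand: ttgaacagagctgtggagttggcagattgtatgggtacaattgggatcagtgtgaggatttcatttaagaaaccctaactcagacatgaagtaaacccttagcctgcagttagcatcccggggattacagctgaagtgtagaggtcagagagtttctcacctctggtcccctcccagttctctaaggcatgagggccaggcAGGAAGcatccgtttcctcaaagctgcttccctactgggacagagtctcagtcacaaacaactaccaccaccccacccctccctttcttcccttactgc
Apln, chrX:48034804-48035103, minus strand: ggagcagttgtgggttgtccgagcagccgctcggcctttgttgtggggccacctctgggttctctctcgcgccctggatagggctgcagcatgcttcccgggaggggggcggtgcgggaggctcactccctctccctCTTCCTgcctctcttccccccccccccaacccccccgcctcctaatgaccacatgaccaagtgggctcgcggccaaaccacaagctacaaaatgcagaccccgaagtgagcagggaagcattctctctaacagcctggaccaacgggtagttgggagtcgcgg
Cldn5, chr16:18776597-18776896, plus strand: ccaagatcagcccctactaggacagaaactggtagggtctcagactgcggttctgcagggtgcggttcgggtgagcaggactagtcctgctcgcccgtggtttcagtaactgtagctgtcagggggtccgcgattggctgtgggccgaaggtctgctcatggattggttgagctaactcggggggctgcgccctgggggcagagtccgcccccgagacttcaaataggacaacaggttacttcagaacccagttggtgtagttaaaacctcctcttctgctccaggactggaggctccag
The ETS letters occurred in 13 of the 25 windows of the 18 genes (52.0%) and in 35.4% of all 32851 windows in the table. The SOX letters occurred in 2 of the 25 windows (8.0%), against 10.7% of all windows, and in none of the 4 shown. A match here describes the letters only.

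The comparison of IR with control brain libraries asked which genes differ in the brain assay between the IR group and the untreated group. By itself it does not set insulin resistance apart from treatment, and the IS group is compared further below. Of 32 endothelial genes tested, 29 were higher in IR brain libraries and 0 were lower, against 6.45% of all 12924 genes called higher and 5.27% called lower. The median log2 fold change was 2.42 for the 32 genes and 0.00 for all genes tested. For 26 of the 32 every IR library lay above every control library, as for 5.85% of all genes. Since a gene seen only in IR libraries could pass the filter through that group alone, the 26 genes that reached 3 CPM in at least 3 control libraries were counted apart, and 23 of these were higher. The share over all genes that reach this level in controls was not counted. The other 6, Gja4, Icam2, Ly6c1, Nos3, Ramp2 and Sox17, passed the filter through groups in which they were higher, so their calls carry that limit. Without IS 2, IR 3 and IR 4, 28 of the 31 genes still tested were higher, where 10.8% of all genes were called in either direction.

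Among adhesion and junction genes, Pecam1 (ENSMUSG00000020717) was at 176, 143, 185, 91.97 and 200.1 CPM in IR libraries, 80.6, 162, 57.5, 38.5 and 23.8 CPM in IS libraries and 23.1, 19.6, 17.6, 21.4 and 12.4 CPM in control libraries. Cdh5 (ENSMUSG00000031871), which encodes VE-cadherin, the main adherens junction protein, was at 279.6, 239, 250.3, 148 and 345 CPM in IR libraries, 102, 247, 94.4, 69.6 and 36.9 CPM in IS libraries and 49.5, 40.1, 32.4, 54.96 and 33.1 CPM in control libraries. All 5 IR libraries lay above all 5 controls for both genes, and in the IS group only IS 2 reached the IR range. The log2 fold change of IR over control was 3.09 ± 0.40 for Pecam1 (SE, adjusted p = 0.000409) and 2.59 ± 0.38 for Cdh5 (adjusted p = 0.000697), or 8.49-fold and 6.01-fold higher. Esam, another junction adhesion molecule, was at 75.1, 60.5, 90.3, 42.9 and 90.7 CPM in IR libraries, 39.03, 76.7, 40.01, 31.9 and 26.6 CPM in IS libraries and 19.9, 20.5, 15.2, 23.3 and 13.9 CPM in control libraries, with no IR library among the controls (log2 fold change 1.96 ± 0.27, adjusted p = 0.000468). Ptprb, the phosphatase VE-PTP that acts on VE-cadherin and on the Tie2 receptor, was at 125, 184, 235, 69.8 and 163 CPM in IR libraries, 39.9, 138, 50.1, 41.6 and 17.3 CPM in IS libraries and 19.7, 20.2, 12.03, 16.5 and 11.4 CPM in control libraries. It was 9.77-fold higher in the IR group (log2 fold change 3.29 ± 0.45, adjusted p = 0.000474), and IR 4 was the lowest IR library yet more than any control. Icam2, a ligand of leukocyte integrins, averaged 7.24 ± 3.31 CPM in IR and 1.39 ± 0.316 CPM in control libraries (SD, n = 5 each, adjusted p = 0.00428).

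Transcription factors of the endothelium moved in the same direction, except Tal1. Erg, an ETS factor needed for endothelial identity, was at 55.2, 49.96, 70.2, 31.7 and 81.2 CPM in IR libraries, 25.01, 46.4, 21.96, 9.04 and 6.56 CPM in IS libraries and 7.32, 6.87, 5.11, 6.92 and 4.58 CPM in control libraries. Every IR library was above every control, by 9.39-fold on average (log2 fold change 3.23 ± 0.43, adjusted p = 0.000422). Sox7, one of the related factors Sox7, Sox17 and Sox18, was at 27.1, 21.5, 21.7, 14.2 and 32.8 CPM in IR libraries, 9.53, 25.4, 8.75, 7.77 and 3.24 CPM in IS libraries and 4.33, 4.07, 2.66, 4.17 and 1.76 CPM in control libraries. Here too the IR and control libraries were apart (log2 fold change 2.80 ± 0.43, adjusted p = 0.000895). Sox18 averaged 50.6 ± 15.6 CPM in IR and 9.03 ± 1.52 CPM in control libraries, and Sox17 5.67 ± 1.14 CPM in IR and 1.35 ± 0.720 CPM in control libraries (SD, n = 5 each, adjusted p = 0.00114 and 0.00226). For Sox17, 16.8% of its exon bases overlap a gene on the other strand in GENCODE M21, and whether counting used strand is not stated. Tal1, a factor shared by blood and endothelial precursors, was at 4.92, 5.57, 5.33, 3.44 and 4.06 CPM in IR libraries, 4.64, 5.22, 5.49, 8.40 and 7.61 CPM in IS libraries and 3.92, 3.72, 4.37, 4.78 and 5.19 CPM in control libraries. Its groups overlapped and it was not called (log2 fold change 0.09 ± 0.20, adjusted p = 0.839).

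**Figure D2:**
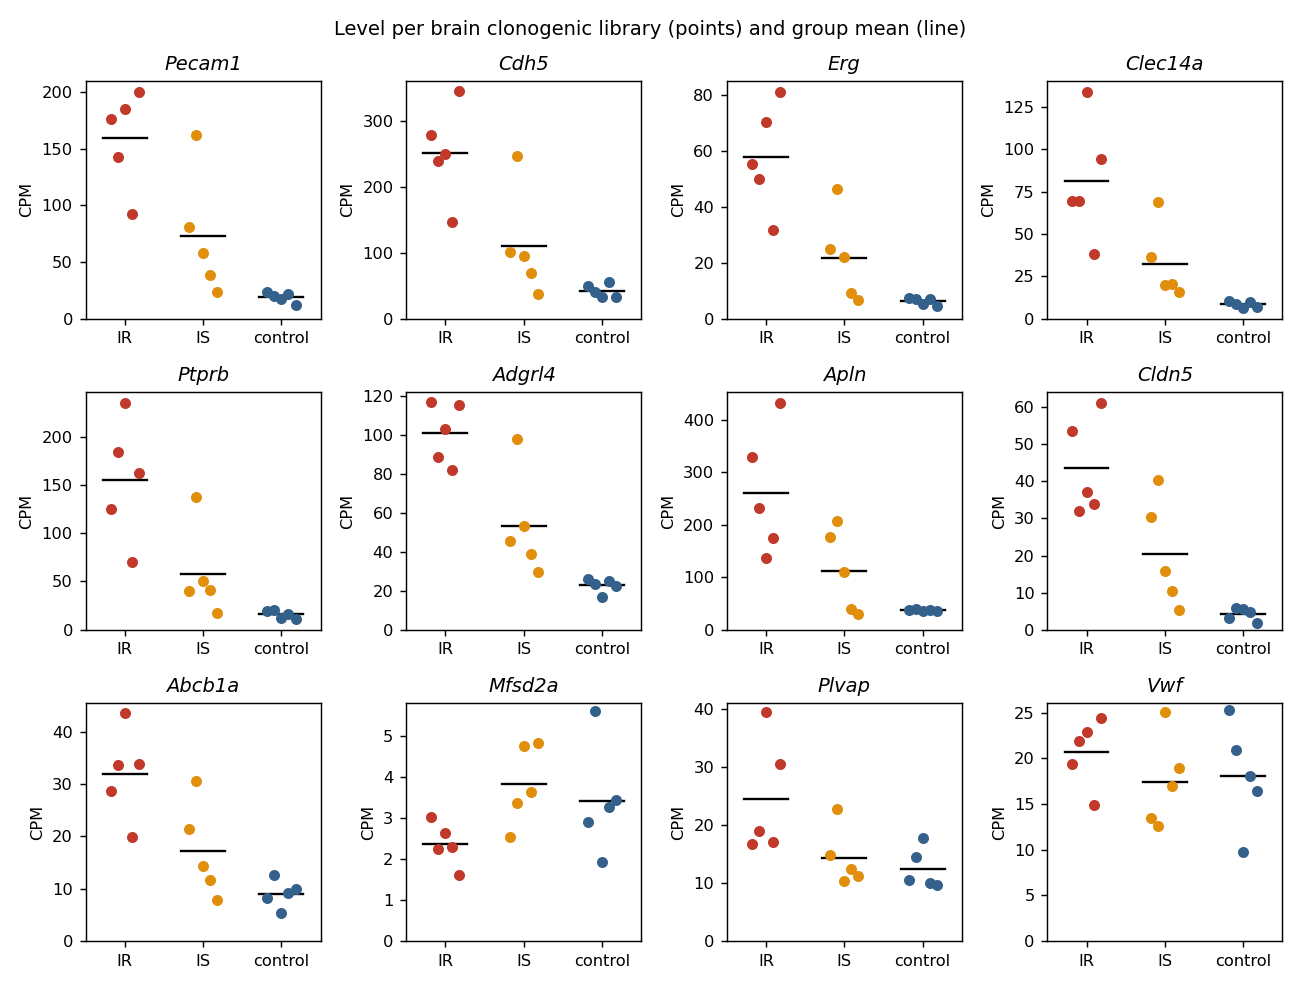
Level in CPM (linear axis from 0) of 12 endothelial genes in each brain clonogenic library (points) and the group mean (line), for the IR, IS and control groups of 5 libraries each. For 9 of the 12 every IR library lies above every control, while Mfsd2a, Plvap and Vwf overlap, and IS 2 is the highest IS point in most panels.

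Among surface receptors, Adgrl4, an adhesion G protein-coupled receptor of vessels whose promoter is shown above, had the smallest adjusted p of the 32 genes tested. It was at 117, 88.6, 103, 81.9 and 116 CPM in IR libraries, 45.5, 98.1, 53.3, 38.7 and 29.7 CPM in IS libraries and 25.9, 23.7, 16.8, 24.9 and 22.4 CPM in control libraries. The 5 IR libraries spread little and all exceeded the controls (log2 fold change 2.15 ± 0.25, adjusted p = 0.000159). Clec14a, a C-type lectin receptor of endothelial cells, was at 69.3, 69.6, 134, 38.1 and 94.3 CPM in IR libraries, 36.2, 69.02, 19.9, 20.4 and 15.5 CPM in IS libraries and 10.6, 8.61, 6.17, 9.97 and 7.13 CPM in control libraries. IR 3 was the highest and IR 4 the lowest IR library, and the controls stayed below both (log2 fold change 3.25 ± 0.40, adjusted p = 0.000311). Adgrf5, another adhesion G protein-coupled receptor, was at 115, 84.9, 121, 58.5 and 106 CPM in IR libraries, 37.6, 96.3, 40.7, 23.1 and 15.2 CPM in IS libraries and 17.02, 18.3, 11.9, 18.2 and 13.99 CPM in control libraries, with IR and control libraries apart (log2 fold change 2.61 ± 0.38, adjusted p = 0.000654). Ecscr, a regulator of endothelial movement, was at 16.9, 16.2, 15.3, 11.4 and 21.5 CPM in IR libraries, 12.7, 15.2, 6.14, 4.47 and 4.37 CPM in IS libraries and 3.30, 3.49, 3.41, 4.17 and 3.17 CPM in control libraries. The lowest IR library of Ecscr was above the highest control (log2 fold change 2.21 ± 0.32, adjusted p = 0.000667).

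Robo4, a roundabout receptor that steadies vessels, averaged 49.3 ± 17.4 CPM in IR and 6.13 ± 1.76 CPM in control libraries (SD, n = 5 each, adjusted p = 0.00114). Cd93, a lectin-like receptor, averaged 147 ± 40.7 CPM in IR and 35.2 ± 16.9 CPM in control libraries (adjusted p = 0.00258). Eng, endoglin, a co-receptor for TGF-beta ligands, was one of the smaller rises at 412, 323, 611, 257 and 390.2 CPM in IR and 239, 177, 168, 195 and 222 CPM in control libraries. These groups were apart, by 1.99-fold on average (log2 fold change 0.99 ± 0.21, adjusted p = 0.00731), and Eng was also abundant in cultured 4T1 cells. Emcn, a mucin of capillaries and veins, rose by 1.31 on the log2 scale (adjusted p = 0.00428). Ramp2, a partner of the adrenomedullin receptor, averaged 3.97 ± 1.98 CPM in IR and 1.18 ± 0.570 CPM in control libraries, and it shares 33.4% of its exon bases with Vps25 on the same strand. Its IR and control libraries overlapped through IR 4 (adjusted p = 0.0155).

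Secreted proteins and matrix genes also rose in the IR group, except Vwf. Egfl7, a secreted regulator of vessel tube formation, was at 78.6, 51.3, 68.7, 43.2 and 102 CPM in IR libraries, 45.2, 84.1, 27.2, 21.2 and 12.4 CPM in IS libraries and 9.28, 11.8, 10.4, 9.97 and 9.59 CPM in control libraries. Mmrn2, a matrix protein bound by Clec14a and Cd93, was at 47.6, 42.7, 55.8, 26.1 and 54.3 CPM in IR libraries, 19.3, 52.2, 17.7, 15.4 and 7.24 CPM in IS libraries and 6.29, 7.91, 4.47, 10.9 and 5.28 CPM in control libraries. For both genes the IR libraries were all above the controls, and the log2 fold changes were 2.76 ± 0.40 for Egfl7 and 2.70 ± 0.41 for Mmrn2 (adjusted p = 0.000693 and 0.000895). Apln, the peptide ligand apelin, was at 330.0, 231, 137, 175 and 433 CPM in IR libraries, 177, 207, 109, 39.6 and 30.1 CPM in IS libraries and 37.7, 40.5, 35.2, 37.4 and 35.4 CPM in control libraries. The IR libraries varied widely around a mean 7.02-fold above the narrow control group (log2 fold change 2.81 ± 0.45, adjusted p = 0.00121). Aplnr, the receptor of apelin, stayed under the filter, at 0.662, 1.22, 0.970, 0.574 and 0.214 CPM in IR libraries and at most 0.426 CPM in control libraries. Esm1, endocan, a secreted proteoglycan of tip cells, rose by 1.54 on the log2 scale (adjusted p = 0.00221). Vwf, the clotting protein von Willebrand factor, was at 19.4, 21.9, 22.9, 14.9 and 24.4 CPM in IR and 25.3, 20.9, 9.79, 18.1 and 16.4 CPM in control libraries. These Vwf values overlapped and it was not called (log2 fold change 0.20 ± 0.22, adjusted p = 0.634).

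Of the other general endothelial genes, Rasip1, which acts in lumen formation, rose by 2.79 on the log2 scale (adjusted p = 0.00121). Nos3, the endothelial nitric oxide synthase, rose by 3.46 and Ly6c1, a surface protein of endothelial cells and monocytes, by 3.14 (adjusted p = 0.00264 and 0.00259), both of them among the 6 genes under that level in control libraries. Rasip1 shares 20.4% of its exon bases with a gene on the same strand, Nos3 shares 32.3% with genes on the other strand, and Ly6c1 has a near-identical neighbour, Ly6c2, so reads of these 3 genes may be split with others. Gja4, a connexin of arteries, averaged 5.68 ± 1.70 CPM in IR and 2.80 ± 0.415 CPM in control libraries (adjusted p = 0.0456). Its groups overlapped, and leaving out any single IR or control library except IR 4 ended the call, with an adjusted p of up to 0.106.

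Of the 4 barrier genes 3 were tested, and of these 2 were higher and 1 was not called, where 6.45% of all genes were called higher. Cldn5 (ENSMUSG00000041378), the main claudin of brain tight junctions, was at 53.4, 32.1, 37.2, 33.9 and 61.1 CPM in IR libraries, 30.5, 40.3, 15.8, 10.4 and 5.20 CPM in IS libraries and 3.30, 5.93, 5.64, 4.89 and 1.76 CPM in control libraries. Every IR library was far above the highest control (log2 fold change 3.36 ± 0.47, adjusted p = 0.000541). Abcb1a, the efflux pump P-glycoprotein, was at 28.8, 33.6, 43.5, 19.9 and 33.8 CPM in IR libraries, 21.4, 30.5, 14.4, 11.6 and 7.76 CPM in IS libraries and 8.25, 12.6, 5.32, 9.16 and 9.86 CPM in control libraries, again with IR and control libraries apart (log2 fold change 1.82 ± 0.31, adjusted p = 0.00178), though reads may be shared with its near copy Abcb1b. Mfsd2a, a lipid transporter that limits vesicle transport across brain endothelium, was at 3.03, 2.23, 2.62, 2.30 and 1.60 CPM in IR libraries, 2.53, 3.36, 4.75, 3.62 and 4.83 CPM in IS libraries and 2.89, 5.58, 1.92, 3.26 and 3.43 CPM in control libraries. The Mfsd2a groups overlapped and the difference was not called (log2 fold change -0.52 ± 0.28, adjusted p = 0.253). Mfsd2a was at 23.8, 19.4 and 19.7 CPM in untreated 4T1 cultures, so it does not mark endothelial cells alone here. Slco1c1, a thyroid hormone carrier of brain vessels, was under the filter, at 1.89, 1.01, 3.00, 1.38 and 0.749 CPM in IR and 0.206, 1.28, 1.06, 0.814 and 1.32 CPM in control libraries. In IS libraries it was at 0.733, 1.68, 2.05, 0.745 and 5.65 CPM, so its highest brain level was in IS 5.

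Plvap, the diaphragm protein of leaky vessels, was at 16.7, 18.9, 39.5, 16.99 and 30.5 CPM in IR libraries, 14.8, 22.8, 10.3, 12.3 and 11.2 CPM in IS libraries and 10.4, 14.5, 17.7, 9.97 and 9.68 CPM in control libraries. Its IR and control libraries overlapped and the rise was small (log2 fold change 0.98 ± 0.27, adjusted p = 0.0281). The Plvap call was lost without IR 3, IR 5, control 1, control 4 or control 5, with an adjusted p of 0.0649 to 0.0940. Lyve1, the hyaluronan receptor of lymphatic vessels, was at 0.284, 0.405, 0.0969, 0 and 0.107 CPM in IR and 0, 0, 0.213, 0.204 and 0.176 CPM in control libraries. These are at most 4 counts a library, so no difference was detectable at this depth.

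**Figure D3:**
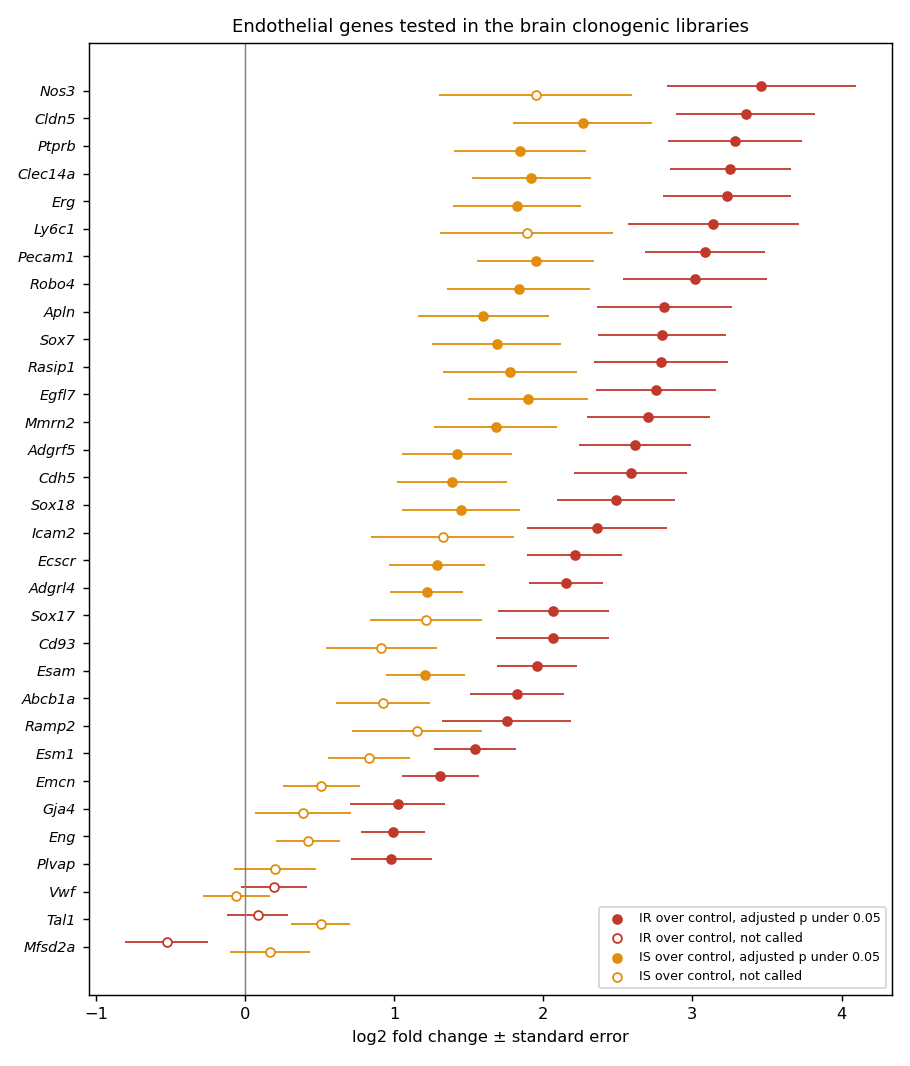
Log2 fold change with its standard error for the 32 endothelial genes tested in brain, IR over control in red and IS over control in orange, filled where the adjusted p was under 0.05. All IR estimates but those of Vwf, Tal1 and Mfsd2a are filled, and the IR estimate exceeds the IS estimate for all but Tal1 and Mfsd2a.

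In IS against control brain libraries, 17 of the 32 genes were higher and 0 lower, against 3.37% of all genes called higher and 3.1% called lower. All 17 were also called in the IR group, which shares the same control libraries. The median log2 fold change was 1.36. Of the 26 genes at 3 CPM or more in at least 3 control libraries, 17 were higher, again with no such share over all genes counted. For 6 of the 32 every IS library lay above every control, as for 3.74% of all genes. Adgrl4 averaged 53.1 ± 26.6 CPM in IS and 22.7 ± 3.57 CPM in control libraries (log2 fold change 1.22 ± 0.24, adjusted p = 0.00810). Pecam1 averaged 72.4 ± 54.3 CPM in IS and 18.8 ± 4.13 CPM in control libraries (log2 fold change 1.95 ± 0.39, adjusted p = 0.00840). Cldn5 had the largest fold change among those called, 4.81-fold (log2 2.26 ± 0.47, adjusted p = 0.00907), but IS 5 at 5.20 CPM lay within the controls.

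The other genes called in the IS group were Clec14a, Egfl7, Esam, Erg, Ptprb, Mmrn2, Ecscr, Rasip1, Sox7, Robo4, Adgrf5, Cdh5, Sox18 and Apln. Their log2 fold changes ran from 1.21 for Esam to 1.92 for Clec14a. Clec14a rose by 1.92 ± 0.40, Egfl7 by 1.90 ± 0.40, Erg by 1.82 ± 0.43 and Ptprb by 1.84 ± 0.44 (SE, adjusted p = 0.00983, 0.0104, 0.0196 and 0.0208). Esam rose by 1.21 ± 0.27, Mmrn2 by 1.68 ± 0.41, Ecscr by 1.29 ± 0.32 and Sox7 by 1.69 ± 0.43 (adjusted p = 0.0136, 0.0233, 0.0254 and 0.0280). For Clec14a, Egfl7, Esam and Ecscr, as for Adgrl4 and Pecam1, all IS libraries were above all controls, while Erg, Ptprb, Mmrn2 and Sox7 had an IS library within the control range. Rasip1 was at 26.7, 54.9, 17.96, 12.8 and 5.73 CPM in IS and 8.35, 5.35, 5.86, 9.36 and 5.46 CPM in control libraries, with only IS 5 inside the control range (log2 fold change 1.78 ± 0.45, adjusted p = 0.0270). Cdh5 was 2.62-fold higher in the IS group (adjusted p = 0.0335), and IS 5 with 36.9 CPM was within the controls. Abcb1a, Plvap, Mfsd2a, Vwf, Eng and Emcn were not called by edgeR (adjusted p = 0.0932, 0.743, 0.789, 0.921, 0.261 and 0.263). DESeq2 called 23 of the 32, Abcb1a among them (adjusted p = 0.0271), where it called 9.43% of all genes. The count of 17 was 9 without IS 2, where 4.72% of all genes were called, and 22 without IS 5, where 5.51% were. It was 10, 9, 7, 11 and 6 without controls 1 to 5 in turn, where 4.38%, 3.61%, 3.78%, 3.86% and 4.07% of all genes were called. Without IS 2, IR 3 and IR 4 it was 11 of 31 genes, where 6.2% of all genes were called.

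Between IR and IS brain libraries the mean was higher in IR and lowest in control for 29 of the 32 genes. By edgeR 0 of the 32 were called, as were 6 of all 12924 genes (0.0464%). At an unadjusted p under 0.05, 27 of the 32 were higher in IR, against 9.97% of all genes, and 2, Mfsd2a and Tal1, were lower, against 8.17%. The 32 include the 6 genes that passed the filter through groups in which they were higher, so this count carries that limit. DESeq2 called 6 of the 32, where it called 4.67% of all genes. The median log2 fold change was 1.02 for the 32 and 0.01 for all genes. Adgrl4 had the smallest p (log2 fold change 0.93 ± 0.23, adjusted p = 0.0756). Cdh5 was 2.30-fold, Pecam1 2.20-fold and Cldn5 2.13-fold higher in IR than in IS libraries, none of them called (adjusted p = 0.0926, 0.113 and 0.156).

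The count in this comparison depended on IS 2. IS 2 was the highest IS library for 29 of the 32 genes and was at or above the lowest IR library for 31. The other 4 IS libraries were all below the lowest IR library for 20 of the 32. Without IS 2, edgeR called 27 of the 32, all higher in IR, where 8.85% of all genes were called. Since IS 2 held the highest IS value for most of these genes, leaving it out favours a higher count. Cdh5 then had a log2 fold change of 1.73 (adjusted p = 0.00294), Pecam1 1.66 (adjusted p = 0.00380), Cldn5 1.48 (adjusted p = 0.0233) and Plvap 1.00 (adjusted p = 0.0233). Without IS 2, IR 3 and IR 4, 26 of 31 were called, where 7.32% of all genes were called.

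The libraries differed in the height of the whole group of genes. Relative to the control mean of each gene, the median over the 32 genes was 6.21, 4.74, 5.05, 3.53 and 6.92 in IR 1 to IR 5, and 2.46, 5.43, 2.23, 1.55 and 1.08 in IS 1 to IS 5. In the 5 controls it was 0.80 to 1.13. IR 5 was the highest of all 15 libraries for 17 genes and IR 3 for 9. The ratio of the highest to the lowest library of a group had a median over genes of 2.25 in IR, 5.85 in IS and 1.80 in control.

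Other endothelial genes, taken from a list of 36 that holds none of the 35, were also counted in brain. This list too was chosen with earlier results of these data known. Of the 36, 17 also passed the filter in exosome culture, so the list is not specific to endothelial cells. Its sum was 1519 to 1607 CPM in untreated cultures, against 919.9 to 1035 CPM in control and 1218 to 1993 CPM in IR brain libraries. Of 32 tested in brain, 22 were higher in IR than in control libraries and 1 was lower, where 6.45% of all genes were called higher and 5.27% lower. S1pr1, a receptor for sphingosine 1-phosphate, averaged 64.02 CPM in IR and 23.01 CPM in control libraries (adjusted p = 0.000159). Flt1, a VEGF receptor, averaged 70.9 CPM in IR and 22.1 CPM in control libraries (adjusted p = 0.000449). Tie1, a receptor tyrosine kinase, averaged 91.4 CPM in IR and 13.2 CPM in control libraries (adjusted p = 0.000795), and Cd34, a sialomucin, 196 CPM in IR and 24.3 CPM in control libraries (adjusted p = 0.000868). Cavin2, a protein of caveolae, was the lower gene, at 135 CPM in IR and 252 CPM in control libraries (log2 fold change -0.90 ± 0.15, adjusted p = 0.00123). In IS libraries 7 of the 32 were higher and 1, again Cavin2, was lower than in controls, where 3.37% of all genes were called higher and 3.1% lower.

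Of 21 further barrier genes tested, 6 were higher and 1 was lower in IR than in control brain libraries, against the same 6.45% and 5.27% of all genes. Of the 23 genes on this list, 13 also passed the filter in exosome culture, so it is not specific to the barrier. Its sum was 2456 to 2478 CPM in untreated cultures, against 3221 to 4047 CPM in control brain libraries. Vwa1, a matrix protein, averaged 42.8 CPM in IR and 10.8 CPM in control libraries (adjusted p = 0.000667), and Ocln, the tight junction protein occludin, 25.5 CPM in IR and 14.3 CPM in control libraries (adjusted p = 0.00292). Itm2a, a membrane protein, rose by 0.66 and Foxq1, a forkhead factor, by 1.83 on the log2 scale (adjusted p = 0.00336 and 0.00483). Slc2a1, the glucose transporter of the barrier, rose by 0.27 on the log2 scale (adjusted p = 0.0394), and Tfrc, the transferrin receptor, fell by 0.34 (adjusted p = 0.0454). Of 8 further lymphatic genes tested, 2 were higher, against 6.45% of all genes. Of the 11 genes on that list, 3 passed the filter in exosome culture, so it too is not specific. It summed to 503.9 to 540.8 CPM in untreated cultures and 864 to 911.7 CPM in control brain libraries. Flt4, a VEGF receptor of lymphatic and of sprouting vessels, averaged 54.7 CPM in IR and 13.5 CPM in control libraries (adjusted p = 0.000678). Tbx1, a T-box factor, rose by 2.46 on the log2 scale (adjusted p = 0.00830). Prox1, the factor that defines lymphatic identity, was at 2.64 to 5.53 CPM in IR and 4.84 to 6.28 CPM in control libraries and was not called.

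Markers of other cell types in the same libraries showed no common direction. Summed over 12 macrophage and microglia genes, the level was 119.5 to 398 CPM in IR, 237 to 1006 CPM in IS and 507 to 720.0 CPM in control brain libraries, and 6 of 8 tested were lower in IR than in control, where 5.27% of all genes were. Ptprc, the shared antigen of white cells, was at 6.69 to 30.5 CPM in IR, 16.8 to 69.3 CPM in IS and 32.5 to 72.0 CPM in control. For 12 pericyte and smooth muscle genes the sum was 502 to 1024 CPM in IR, 562 to 1403 CPM in IS and 867 to 1231 CPM in control, and 1 of 9 tested was higher in IR, where 6.45% of all genes were. Rgs5, a pericyte gene, was at 7.27 to 15.9 CPM in IR and 11.3 to 16.2 CPM in control. The sum of 10 fibroblast genes was 293 to 686 CPM in IR, 516 to 809 CPM in IS and 692 to 877 CPM in control, with 2 of 7 tested lower in IR, against 5.27% of all genes. The 8 astrocyte genes summed to 168 to 279.6 CPM in IR, 217 to 346 CPM in IS and 184 to 215 CPM in control. Of the 8, 3 were higher in IR, against 6.45% of all genes. The same list summed to 387 to 409 CPM in untreated cultures, so it is not specific to astrocytes. Gfap, an astrocyte gene, was lower on average in IR, at 40.8 CPM against 62.2 CPM in control, and was not called. It ranged from 14.45 to 69.51 CPM in IR, 53.61 to 95.59 CPM in IS and 51.04 to 80.64 CPM in control. Red cell genes stayed at or under 1.05 CPM in every brain library, and 10 platelet genes summed to 34.2 to 62.1 CPM in IR, 34.9 to 62.8 CPM in IS and 33.6 to 52.0 CPM in control. The 10 epithelial tumour genes summed to 142 to 223 CPM in IR, 121 to 251 CPM in IS and 185 to 257 CPM in control brain libraries, against 3794 to 3803 CPM in untreated cultures. The part of these cell types in the endothelial differences was not tested.

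**Figure D4:**
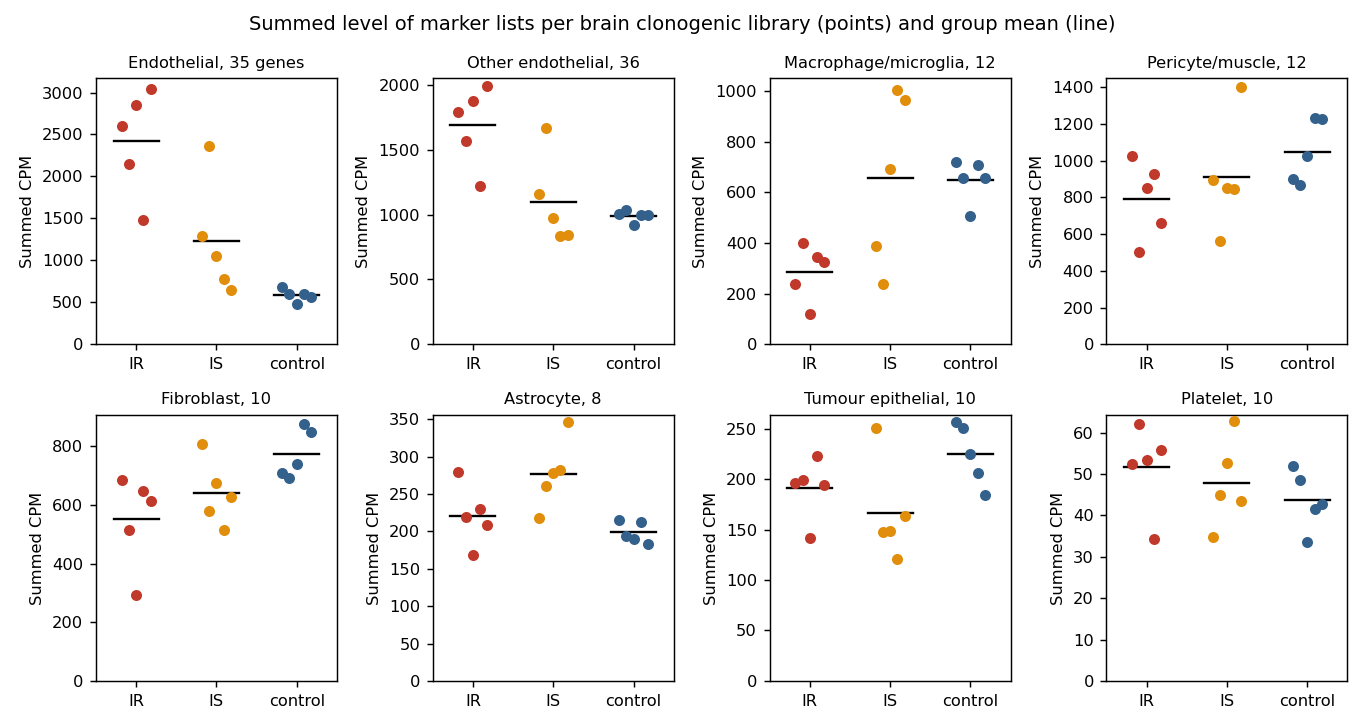
Summed level in CPM (linear axes from 0) of the 35 endothelial genes and of lists for other endothelial genes and 6 other cell types in each brain library (points) with the group mean (line), for the IR, IS and control groups. The endothelial sums are highest in the IR group, from 1481 to 3040 CPM, while the macrophage and microglia sums are lower in every IR library, at most 398 CPM, than in every control, at least 507 CPM.

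In primary tumours the endothelial genes were expressed in all 9 libraries, and none of the 32 tested was called between IR and control. By edgeR 0 of the 32 and 0 of all 12962 genes (0%) passed, and by DESeq2 0 of the 32 and 124 of all genes (0.957%) passed. At an unadjusted p under 0.05, 6 of the 32 were higher in IR tumours and 0 were lower, against 4.86% and 2.79% of all genes. The median log2 fold change was 0.32 for the 32 and 0.01 for all genes. For none of the 32 did the groups lie apart, as they did, with IR higher, for 1.15% of all genes. Set in 4 pairs by the number in their titles, the IR tumour was higher in all 4 pairs for 8 of the 32 (Abcb1a, Adgrl4, Cd93, Cdh5, Eng, Erg, Mmrn2 and Ptprb), as for 13.6% of all genes. Set in pairs by the number in their library names, which differ for 1 control, it was higher in all 4 pairs for 5 of the 32 (Abcb1a, Adgrl4, Emcn, Eng and Mmrn2), as for 8.61% of all genes. With either numbering as a block, 0 of the 32 were called.

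The 6 were Adgrl4, Eng, Aplnr, Mmrn2, Abcb1a and Cdh5. Adgrl4 was at 17.02, 17.2, 24.6, 27.5 and 22.7 CPM in IR tumours, against 13.7, 13.2, 12.1 and 17.1 CPM in control tumours. Only the lowest IR tumour lay below the highest control, and the log2 fold change was 0.64 ± 0.19 (adjusted p = 0.494). Aplnr, the apelin receptor that was under the filter in brain, was at 14.5, 34.4, 43.2, 53.2 and 42.5 CPM in IR tumours, against 16.6, 19.7, 22.1 and 18.1 CPM in control tumours, and 4 of 5 IR tumours exceeded every control (log2 fold change 0.97 ± 0.31, adjusted p = 0.514). Its ligand Apln was at 76.8, 41.9, 68.5, 70.4 and 69.04 CPM in IR tumours, against 57.4, 45.9, 46.98 and 61.4 CPM in control tumours, with overlap (adjusted p = 0.781). Eng was at 179.5, 147, 191, 193 and 169 CPM in IR tumours, against 134, 133, 149 and 143 CPM in control tumours. Here 4 of 5 IR tumours exceeded every control, by 1.26-fold on average (adjusted p = 0.514).

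Cdh5 was at 64.2, 77.01, 109.6, 103 and 81.3 CPM in IR tumours, against 44.4, 58.5, 48.1 and 85.1 CPM in control tumours. Control 4 lay inside the IR range (log2 fold change 0.56 ± 0.22, adjusted p = 0.613). Pecam1 was at 74.1, 155, 114, 119 and 131 CPM in IR tumours, against 100.3, 113, 77.2 and 152 CPM in control tumours. The Pecam1 values overlapped throughout (log2 fold change 0.10 ± 0.23, adjusted p = 0.988). Cldn5 was at 13.2, 27.1, 14.6, 37.9 and 56.8 CPM in IR tumours, against 20.6, 18.9, 14.8 and 53.6 CPM in control tumours. IR 5 and control 4 were the highest tumours of their groups, and the groups overlapped (log2 fold change 0.15 ± 0.50, adjusted p = 0.995). Plvap was at 41.6, 162, 76.6, 99.5 and 148 CPM in IR tumours, against 80.7, 99.5, 63.2 and 139 CPM in control tumours, with overlap from the lowest IR tumour to the highest control (log2 fold change 0.14 ± 0.37, adjusted p = 0.989). Lyve1, the lymphatic marker, was at 1.59, 20.4, 5.35, 4.71 and 12.4 CPM in IR tumours, against 8.57, 16.8, 9.74 and 2.75 CPM in control tumours. In the IR group it had the widest spread of the 32 genes relative to its mean (log2 fold change -0.09 ± 0.68, adjusted p = 0.998). Mfsd2a was under the filter, at 1.12, 4.11, 1.91, 0.536 and 1.09 CPM in IR and 2.13, 2.28, 1.76 and 2.95 CPM in control tumours, and Slco1c1 was at 0 CPM in 8 of 9 tumours.

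Markers of other cell types were counted in the tumours too, and edgeR called none. At an unadjusted p under 0.05, 5 of 10 fibroblast, 5 of 11 pericyte and smooth muscle and 4 of 4 red cell genes tested were higher in IR. None of these was lower, where 4.86% of all genes were higher and 2.79% lower. Of 12 macrophage genes 1 was higher and 2 were lower, and of 10 epithelial tumour genes 5 were higher and 1 was lower. The sum of 10 fibroblast genes was 6709 to 12880.0 CPM in IR and 3991 to 7220.0 CPM in control tumours, and that of 12 pericyte and smooth muscle genes 346 to 1074 CPM in IR and 269 to 512 CPM in control tumours. Macrophage genes summed to 778 to 1147 CPM in IR and 1070.0 to 1173 CPM in control tumours, and red cell genes to 74.4 to 729 CPM in IR and 70.3 to 198 CPM in control tumours. Their part in the endothelial values was not tested.

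The makeup of the endothelial set differed between the brain clonogenic and primary tumour experiments. They were quantified separately and are set side by side without a test, and the brain libraries came from a culture assay. Per kilobase of exon, Plvap was the most abundant of the 35 genes in tumours, at 53.1 CPM per kb in IR and 48.1 CPM per kb in control, followed by Eng at 43.5 CPM per kb in IR and 34.5 in control. In brain Eng came first, at 98.4 CPM per kb in IR, 66.3 in IS and 49.4 in control, followed by Apln at 83.0 CPM per kb in IR, 35.8 in IS and 11.8 in control. Cdh5 was next at 60.1 CPM per kb in IR, 26.2 in IS and 10.0 in control. Plvap ranked 17 of 35 in the IR brain group at 12.3 CPM per kb and 7 of 35 in the control brain group at 6.27 CPM per kb. Untreated 4T1 cultures also held Eng, at 24.35 CPM per kb, and Apln, at 28.63 CPM per kb.

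**Figure D5:**
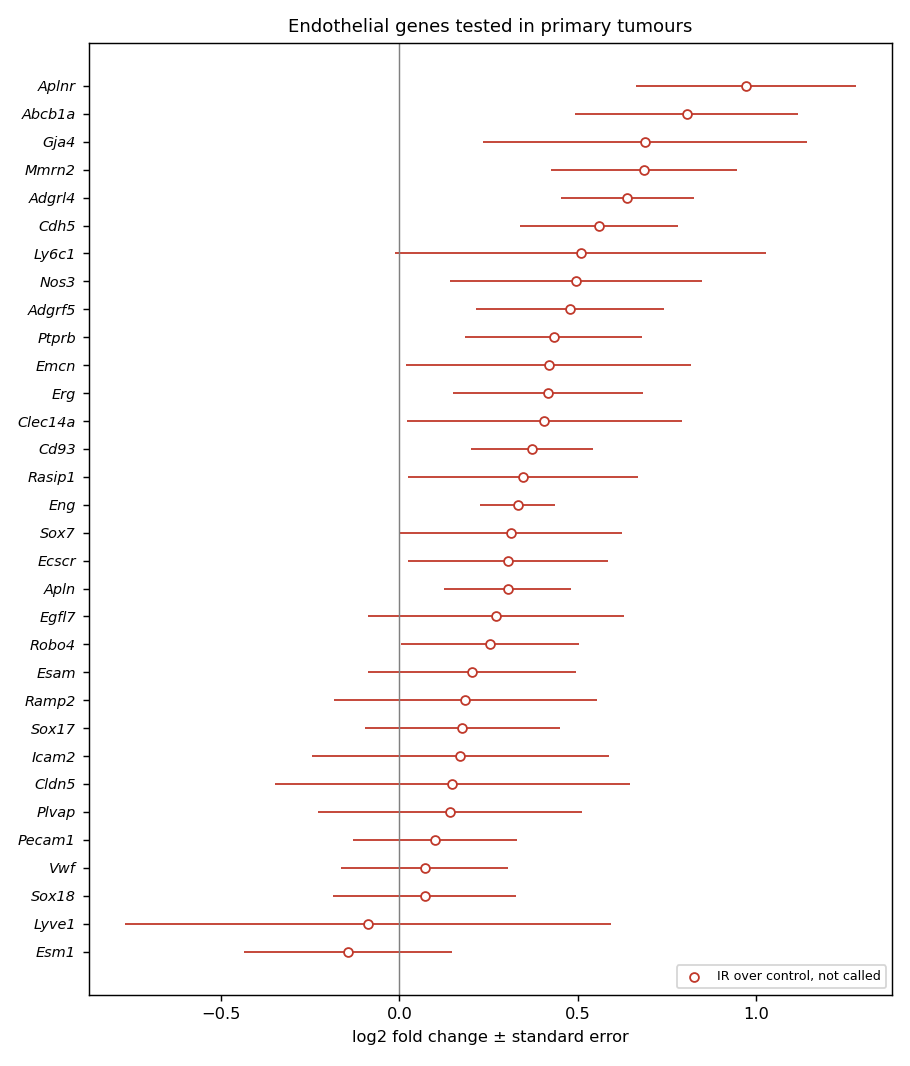
Log2 fold change of IR over control with its standard error for the 32 endothelial genes tested in primary tumours. All points are open, since no adjusted p was under 0.05, and all but Lyve1 and Esm1 lie above 0.

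In exosome culture 5 of the endothelial genes were tested. With IR exosomes 1 of the 5 genes tested was lower than in untreated cells, where 6.9% of all 10888 genes were called lower, and 0 were higher, where 6.67% of all genes were. Mfsd2a was at 13.8, 13.7 and 13.8 CPM with IR exosomes, 12.02, 12.8 and 13.2 CPM with IS exosomes and 23.8, 19.4 and 19.7 CPM without treatment. All libraries given either exosome were below all untreated ones, with a log2 fold change of -0.60 ± 0.10 for IR (adjusted p = 0.000739) and -0.72 ± 0.10 for IS exosomes (adjusted p = 0.000119). With IS exosomes 2 genes, Adgrf5 and Eng, were higher than in untreated cells and Mfsd2a was lower, where 9.97% of all genes were called higher and 9.32% lower. Adgrf5 was at 4.32, 6.81 and 5.14 CPM with IR exosomes, 5.04, 6.22 and 6.29 CPM with IS exosomes and 3.54, 3.52 and 3.76 CPM without treatment. The untreated libraries were the lowest, but Adgrf5 was called with IS exosomes only (adjusted p = 0.0240, and 0.0675 with IR exosomes), and that call was lost without IS 2, IS 3 or any 1 of the controls. Between IR and IS exosomes Adgrf5 did not differ beyond its spread (log2 fold change -0.10 ± 0.19, adjusted p = 0.804).

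Eng was at 97.4, 98.2 and 91.8 CPM with IR exosomes, 112, 108 and 109 CPM with IS exosomes and 102, 99.3 and 94.6 CPM without treatment. It was lower with IR than with IS exosomes, the only one of the 5 genes called in that comparison, where 3.45% of all genes were called lower (log2 fold change -0.20 ± 0.05, adjusted p = 0.0257). With IS exosomes it was 1.11-fold higher than without treatment (adjusted p = 0.0359). The IR against IS call was lost without IR 3 or any 1 of the IS libraries, and the IS against untreated call without any 1 of the IS libraries, control 2 or control 3, with an adjusted p of up to 0.139. For IS exosomes against no treatment, Eng was not called by DESeq2 (adjusted p = 0.0603) or with no filter on low counts (edgeR, adjusted p = 0.0525). Apln was at 101, 93.8 and 95.1 CPM with IR exosomes, 88.2, 94.1 and 86.4 CPM with IS exosomes and 93.1, 88.8 and 88.5 CPM without treatment, and Egfl7 at 5.29 to 8.92 CPM over the 9 libraries. Neither gene was called in any of the 3 comparisons.

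In the small RNA experiment, 1 of the 4 genes tested was higher and 1 was lower in the libraries titled miR-145a-3p than in those titled scrambled, where 28% and 28.7% of all 10751 genes were called. Apln was at 84.4, 83.5 and 91.1 CPM in libraries titled miR-145a-3p and 55.04 and 52.6 CPM in libraries titled scrambled (log2 fold change 0.68 ± 0.07, adjusted p = 0.000180). Egfl7 was at 8.71, 7.74 and 7.22 CPM in libraries titled miR-145a-3p and 13.5 and 12.7 CPM in libraries titled scrambled (log2 fold change -0.73 ± 0.13, adjusted p = 0.00201). The groups were apart for both genes, in a comparison that called 56.7% of all genes in either direction. Eng and Mfsd2a were not called (adjusted p = 0.897 and 0.201), and 25 of the 35 genes were below 1 CPM in all 5 libraries. The libraries titled scrambled are too few for a gene high only there to pass the filter. Gja4 was at 4.14 and 7.61 CPM in these, against 0.798 to 1.47 CPM in those titled miR-145a-3p. Ecscr was at 3.74 and 4.38 CPM, against 1.575 to 2.09 CPM. Neither gene was tested.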

How the data were processed

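RNA-seq libraries of 4T1-labelled samples were made with a stranded mRNA kit, per the labels' protocols. The authors deposited expected counts per gene, from RSEM for brain and exosome culture and from salmon for tumours and the small RNA experiment, after an nf-core pipeline per the series text. Trimmomatic, STAR, featureCounts and DESeq2 are listed in the submitters' processing notes, with builds GRCm38 and GRCm39 and no version or role. The strand setting of the counting is not stated. The exosome culture table held 3 value columns that match no sample, and they were not used. The IR columns of the brain and exosome culture tables were assigned to their group, and IR numbers there are those in the column headers. Gene IDs were named from the tumour table (52139 of 55487) and a gene name table (3257), leaving 91 unnamed.

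Expected counts were rounded to whole numbers. Each experiment was fitted in edgeR 4.0.16 (R 4.3.3) by the quasi-likelihood test with TMM scaling and all groups in one fit, over genes with at least 3 CPM in at least 3 libraries, and Benjamini-Hochberg adjustment ran over all of these genes. Calls were made under an adjusted p of 0.05. For CPM, a library's total was its count over tested genes, scaled by the TMM factor. The limit of 3 counts for a gene with none covers counting error only. Standard errors are the log2 fold change over the square root of the F statistic, and these and the standard deviations include the scatter between libraries. The scripts were tested on simulated data. Alternatives were DESeq2 1.42.0, its size factors, no filter, a replicate block, fits of the compared groups only, each library left out in turn and, in brain, IS 2, IR 3 and IR 4 left out together. Where leaving libraries out leaves 2 or 1 in a group, the spread is shared over the fit.

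The 35 genes and all other gene lists were chosen with earlier results of these data known. Full values were to be given for called genes, up to 12 per comparison by smallest adjusted p, and always for Pecam1, Cdh5, Cldn5, Plvap, Mfsd2a and Lyve1. Up to 4 called genes were to be named in each further endothelial, barrier and lymphatic list. The library values of Tal1, Apln, Aplnr, Abcb1a, Slco1c1, Eng and Vwf in brain, those of Apln in tumours, and Cavin2, Slc2a1 and Tfrc were added after their values were seen. In tumours, samples with the same number in their titles deviated together in all 4 pairs (correlations of 0.117 to 0.759). The control titled 4 has the library name Control_5, which would pair it with IR 5 (correlation 0.00875), so whether the numbers pair the tumours is not settled. Library name numbers were added as a block after the data were seen, and neither block changed a call among the 35 genes.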

Additional observations from a re-analysis of the deposited data

Results flagged for a closer look

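Among 165 groups of 4 to 10 libraries in which a gene's extreme value could be set against the others, 14 had 1 library standing apart, where chance gives about 8.25 (1 in 20). In the brain IR group, Ly6c1 was at 52.0 CPM in IR 3, with the next library at 19.6 CPM.

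In the brain IS group, IS 2 stood above the rest for 8 genes. Cd93 was at 142 CPM in IS 2 with the next at 58.9 CPM, Eng at 421 CPM with the next at 251 CPM, Esam at 76.7 CPM with the next at 40.0 CPM and Ly6c1 at 27.5 CPM with the next at 7.25 CPM. Mmrn2 was at 52.2 CPM with the next at 19.3 CPM, Nos3 at 19.5 CPM with the next at 6.44 CPM, Ptprb at 138 CPM with the next at 50.1 CPM and Sox7 at 25.4 CPM with the next at 9.53 CPM. The 8 genes share 1 library and are not separate observations.

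In the brain control group, control 1 was highest for Cd93 at 64.3 CPM, with the next at 35.02 CPM, and for Sox18 at 11.7 CPM, with the next at 8.86 CPM. In tumours, Apln was lowest in IR 2 at 41.9 CPM, with the next at 68.5 CPM. Tumour control 4 was highest for Cldn5 at 53.6 CPM, with the next at 20.6 CPM, and for Emcn at 37.8 CPM, with the next at 13.5 CPM.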

How the results depend on the processing

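No called difference changed direction under the alternatives run. The 29 genes higher in IR than in control brain libraries were 29 under DESeq2, DESeq2 size factors, no filter and the replicate block, and 27 to 29 with 1 library left out. For IS against control, 17 became 23 under DESeq2 (1219 genes in all, against 835 by edgeR), 20 with no filter (769 genes), 14 of 30 with only those 2 groups in the fit, 9 with the replicate block, 11 with IS 2, IR 3 and IR 4 left out, and 6 to 22 with 1 library left out. DESeq2 added Icam2 (adjusted p = 0.0401), Sox17 (0.0189), Nos3 (0.0425), Abcb1a (0.0271), Esm1 (0.0219) and Ly6c1 (0.0218), and no filter added Nos3 (0.0462), Esm1 (0.0478) and Ly6c1 (0.0287). For IR against IS in brain, 0 became 6 under DESeq2 (604 genes in all, against 6 by edgeR), 6 with no filter (334 genes), 26 with those 3 libraries left out (937 genes), and 0 to 27 with 1 left out. Deviations of samples with the same number correlated at -0.203 to 0.237 in brain, -0.183 to 0.157 in culture and -0.181 to -0.17 in the small RNA experiment. So few pairs cannot settle whether the numbers pair these samples. The replicate block gave 29, 9 and 0 in brain, 1, 3 and 1 in culture, 0 in tumours and 2 in the small RNA experiment. In culture, leaving 1 library out gave 1 to 2 genes for IR exosomes, 1 to 2 for IS exosomes and 0 to 1 between them. In the small RNA experiment, no filter gave 6 of 26 genes. Fits of the compared groups only are the same as the reported fits for tumours and the small RNA experiment and were not run there. Over all genes, leaving 1 library out gave 836 to 1803 calls for IR against control in brain (1514 with all), 465 to 872 for IS against control (835), 0 to 1139 for IR against IS (6) and 295 to 871 for IR against IS exosomes (683). The replicate block gave 3990 calls in the small RNA experiment (6093 without it), 1 in tumours by title numbers and 4 by library name numbers, a setting chosen after seeing the data (0 without a block), and 0 for IR against IS in brain, as did the fit of those 2 groups alone. The cause of these shifts was not tested, beyond the fewer libraries or other genes each setting holds. Depth limits statements on Lyve1 and Slco1c1 in brain and on most of the 35 genes in cultured cells.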
